A study of Rattus norvegicus with 15 samples.

Results

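Oxidative phosphorylation was followed here through 46 nuclear genes that code for subunits of its complexes I to V and for cytochrome c, in rat hepatocytes exposed to naphthalene or to 1 of 3 hydroxylated analogs. The genes were picked by symbol, from a pathway proposed with earlier results of these data known: 21 belong to complex I, 4 to complex II, 6 to complex III, 1 is cytochrome c, 8 belong to complex IV and 6 to complex V. Of the 46 genes, 44 had a probe whose transcript accession carried the symbol, and 42 could be tested among 19803 genes in all. The cells were cryopreserved primary hepatocytes of male rats of the strain written Wister in the labels. They were held in culture for 24 h and then given a compound at 30 µM, or the solvent DMSO alone, for 24 h. The 5 groups were the diols 2,7-naphthalenediol and 1,5-naphthalenediol, then 1-naphthol, naphthalene and DMSO, with 3 one-colour arrays in each and 1 RNA sample per array. Naphthalene is a fused pair of aromatic rings without a hydroxyl group, 1-naphthol carries a single hydroxyl group, and the diols carry a pair of them at the positions in their names. The series was set up to compare naphthalene with these analogs for read-across of liver toxicity, in which data on a compound are used to judge a structurally similar one. The sources used here give neither the animals' age nor the number of donors. The design text describes the 3 arrays of a group as independent experiments, and all p-values rest on the spread between these arrays.

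As background, the respiratory chain in the inner mitochondrial membrane passes electrons from NADH (through complex I) and from succinate (through complex II) to ubiquinone, then through complex III and cytochrome c to oxygen at complex IV. Complexes I, III and IV pump protons while they do so, and complex V, the ATP synthase, uses the returning protons to make ATP. Hepatocytes rely on this pathway for most of their ATP, and most of its subunits are coded in the nucleus, with the rest coded in mitochondrial DNA. No probe matched any of the 13 subunits coded in mitochondrial DNA, so these are not analysed here.

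A level is the log2 intensity of a probe minus the 75th percentile of its array, and a difference is that level in one group minus the level in another. Depth on arrays is signal over background: 1718 to 2074 intensity units at the 75th percentile of an array, with 57.4% to 61% of the spots for genes read as well above background. All 42 tested genes were well above background on all 15 arrays and 0 had a saturated array. Their within-group standard deviation ran from 0.0276 for Ndufb6 to 0.291 for Cox7c, with a median of 0.0465. The Cox7c value is set by 1,5-naphthalenediol (0.632), since the other groups had up to 0.138. The hepatocyte identity of the cells was checked with 11 marker genes, all of them tested, whose summed level was 9.03 to 9.07 with 2,7-naphthalenediol, 9 to 9.09 with 1,5-naphthalenediol, 9.01 to 9.07 with 1-naphthol, 9.02 to 9.11 with naphthalene and 9.11 to 9.14 in DMSO. The groups given 2,7-naphthalenediol, 1,5-naphthalenediol and 1-naphthol thus lay just below DMSO and naphthalene reached it. This sum is set by the brightest markers, and others went the opposite way with 1,5-naphthalenediol: Tat averaged 0.76 against 0.38 in DMSO, Cps1 -1.23 against -1.6, Fgb 4.75 against 4.61 and Apob 3.99 against 3.84. With each marker weighted equally, the mean deviation of the 11 markers from their average over all arrays was 0.08, 0.12 and 0.03 with 1,5-naphthalenediol, against 0.03, 0.01 and 0.03 in DMSO. The part of these differences in the results was not tested. Summed levels were -2.12 to -1.61 for stellate cells (5 of 8 markers tested), -4.05 to -3.50 for macrophages (2 of 8), 0.73 to 1.1 for endothelial cells (2 of 7, set by Vwf), -1.13 to -0.62 for bile duct cells (2 of 6, set by Epcam) and -4.29 to -3.81 for lymphocytes (2 of 7). For bile duct cells the arrays given 2,7-naphthalenediol (-1.11 to -0.98), 1,5-naphthalenediol (-0.96 to -0.94) and 1-naphthol (-1.13 to -0.86) all lay below DMSO (-0.75 to -0.62), while naphthalene (-0.71 to -0.63) lay within its range. The part of this difference in the results was not tested either. In RNA from a whole culture, fewer cells of a type and less RNA per cell cannot be told apart.

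By the slide positions in the file headers, 2 slides were used. Slide 1 held 8 arrays, namely all of 2,7-naphthalenediol and DMSO and replicates 1 and 2 of 1,5-naphthalenediol. Slide 2 held the other 7 arrays, namely replicate 3 of 1,5-naphthalenediol and all of 1-naphthol and naphthalene. No slide holds DMSO together with 1-naphthol or naphthalene, so for these 2 compounds an effect of the slide and one of the compound cannot be told apart, save by way of 1,5-naphthalenediol, which was on both slides. In the fits below with the slide as a block, the slide term thus comes from 2 arrays on slide 1 and 1 on slide 2. Its error enters every comparison across slides. A p above the threshold in such a fit therefore does not show that a difference is absent. The comparisons of each compound with DMSO also share the same 3 DMSO arrays, so the 4 sets of values below are not independent of one another.

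In limma's F test of any difference among the 5 groups, 16 of the 42 genes (38.1%) had a Benjamini-Hochberg adjusted p below 0.05, beside 44.7% of all genes tested. The 16 were 5 of 17 genes of complex I, 4 of 4 of complex II, 1 of 6 of complex III, cytochrome c, 2 of 8 of complex IV and 3 of 6 of complex V. The share was not above that of all genes.

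Against DMSO, differences were small and mostly negative. With 2,7-naphthalenediol 6 of 42 genes fell and 0 rose, where 11% of all genes were called in either direction (4.84% lower and 6.2% higher). With 1,5-naphthalenediol 10 fell and 1 rose (22.1% of all genes called, 12.7% lower and 9.41% higher). With 1-naphthol 8 fell and 1 rose (20.8% of all genes, 10.6% lower and 10.2% higher). With naphthalene 11 fell and 1 rose (25.1% of all genes, 12.6% lower and 12.5% higher). The share of the 42 genes called was 14.3%, 26.2%, 21.4% and 28.6% in that order of compounds, near the share of all genes, while the calls themselves leaned to the lower side. The split depended on the scaling: under quantile normalization it was 2 higher and 2 lower with 1-naphthol and 1 higher and 4 lower with naphthalene, and after normexp background correction 2 higher and 6 lower with 1-naphthol.

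The median difference of the 42 genes was -0.10 with 2,7-naphthalenediol, -0.09 with 1,5-naphthalenediol, -0.06 with 1-naphthol and -0.07 with naphthalene. Over all genes the medians were -0.02, -0.01, 0.00 and 0.00. Counted by sign alone, 41, 40, 32 and 35 of the 42 genes had a mean below DMSO, beside 55.8%, 53.2%, 51% and 50.5% of all genes. Under quantile normalization 31, 31, 29 and 30 did, beside 53.9%, 49.5%, 49.5% and 50.8% of all genes. All 3 arrays lay below all 3 DMSO arrays for 24, 18, 20 and 15 of the genes (22.2%, 21.6%, 24.1% and 20.8% of all genes), and above them for 1, 1, 3 and 1 (16.2%, 16.6%, 22.9% and 20.5% of all genes).

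**Figure D1:**
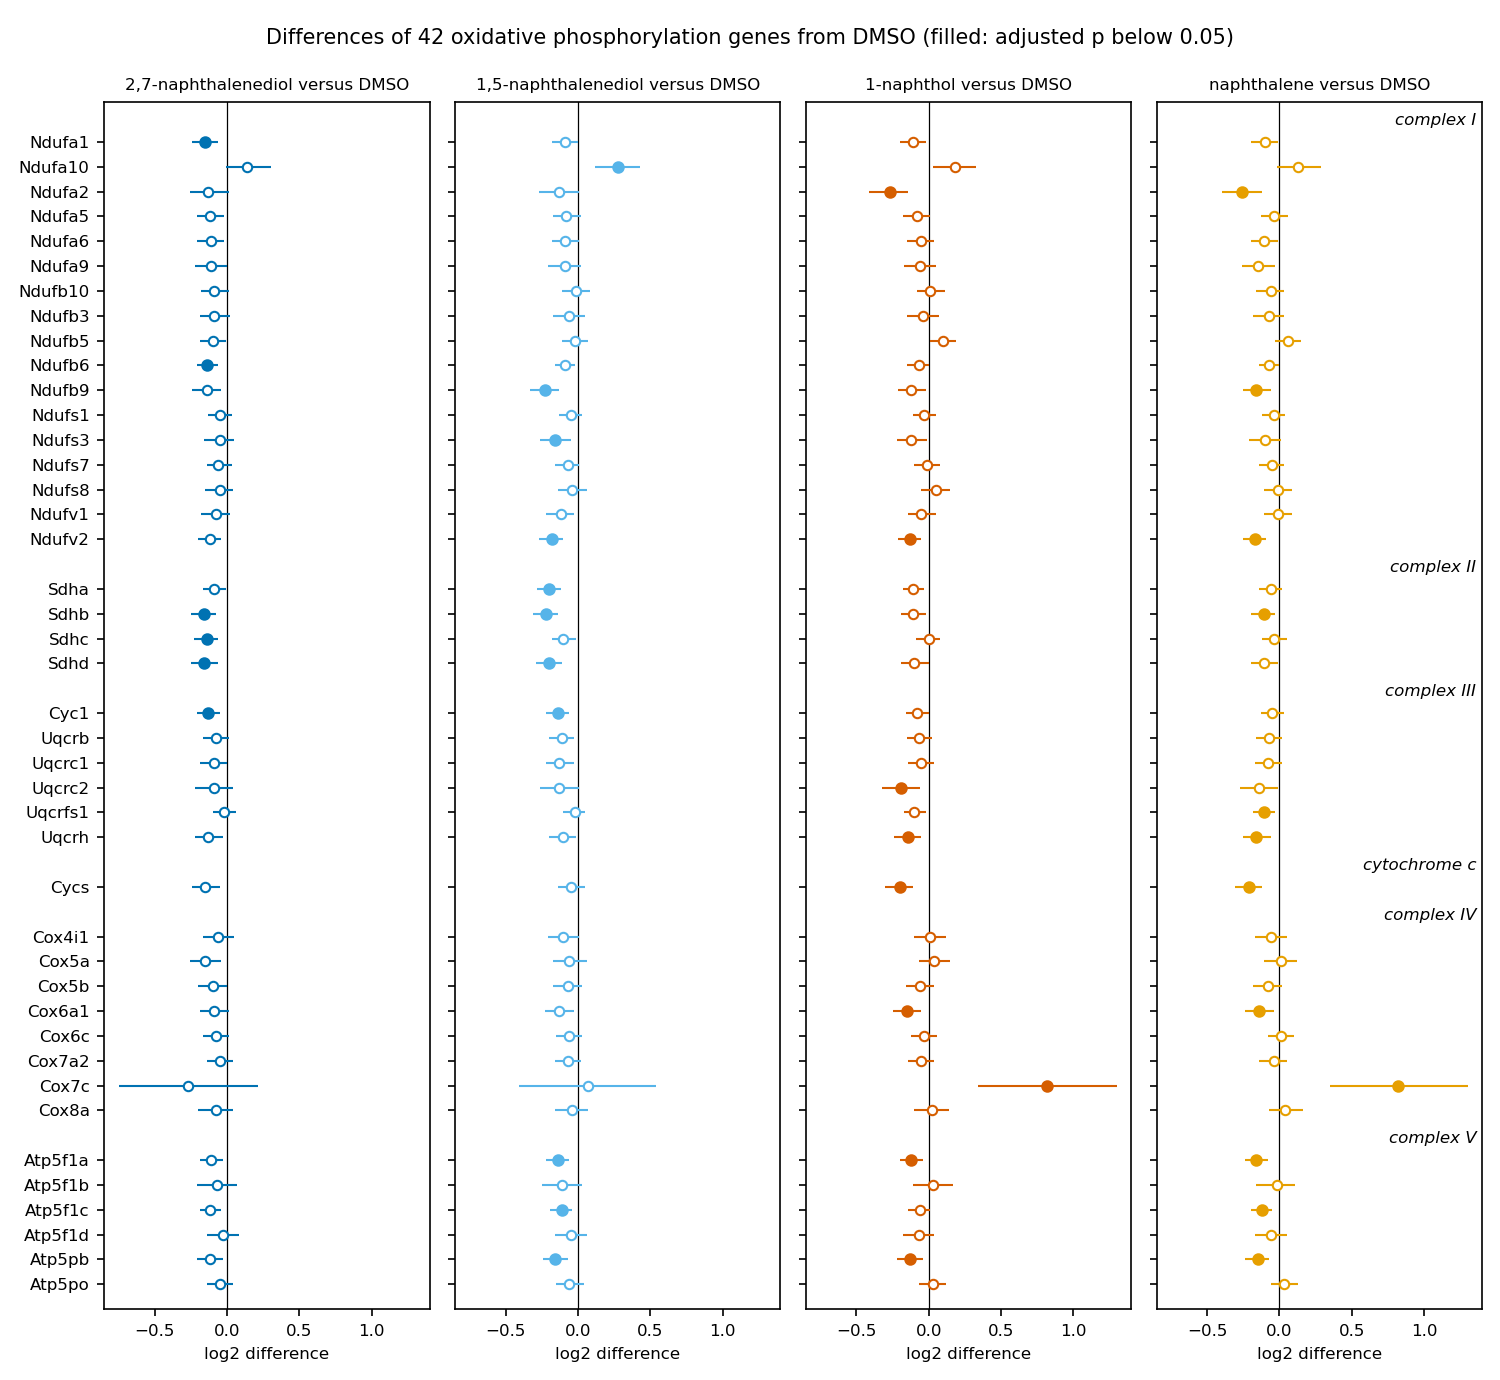
Difference from DMSO of each of the 42 tested genes (log2, horizontal axis), grouped by complex down the page, with a panel for each compound; points are estimates over 3 arrays per group, bars are 95% confidence intervals and filled points have an adjusted p below 0.05. The estimates lie between -0.27 and 0.28, except for Cox7c at 0.82 with 1-naphthol and naphthalene.

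Complex I takes electrons from NADH. Its core is represented by Ndufv1 and Ndufv2 of the NADH-binding module, Ndufs1 with its iron-sulfur clusters, and Ndufs3, Ndufs7 and Ndufs8 of the arm that leads to ubiquinone, and the remaining tested genes are accessory subunits. The median difference over its 17 genes was -0.10 with 2,7-naphthalenediol, -0.09 with 1,5-naphthalenediol, -0.05 with 1-naphthol and -0.07 with naphthalene. Called genes numbered 2 lower with 2,7-naphthalenediol, 3 lower and 1 higher with 1,5-naphthalenediol, 2 lower with 1-naphthol and 3 lower with naphthalene. The shares called were 11.8%, 23.5%, 11.8% and 17.6%, beside 11%, 22.1%, 20.8% and 25.1% of all genes, so they were near or below those of all genes.

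Ndufv2, which carries an iron-sulfur cluster next to the NADH site, had the smallest F test p of the complex (adjusted p = 0.0131). Its level was 4.03, 4 and 4.01 with 2,7-naphthalenediol, 3.94, 4.02 and 3.90 with 1,5-naphthalenediol, 4, 3.97 and 4.06 with 1-naphthol and 3.97, 3.97 and 3.96 with naphthalene, against 4.16, 4.10 and 4.15 in DMSO. Every exposed array lay below every DMSO array. With 1,5-naphthalenediol the gene fell by 11.9%. The differences from DMSO were -0.12 with 2,7-naphthalenediol (limma adjusted p = 0.0561), -0.18 with 1,5-naphthalenediol (SE 0.0377, adjusted p = 0.00503), -0.13 with 1-naphthol (adjusted p = 0.0305) and -0.17 with naphthalene (adjusted p = 0.00914). The call with 1,5-naphthalenediol held in each fit without 1 array (largest adjusted p 0.0219).

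Ndufb9, an accessory subunit of the membrane arm, read 5.27, 5.19 and 5.20 with 2,7-naphthalenediol, 5.08, 5.17 and 5.14 with 1,5-naphthalenediol, 5.23, 5.25 and 5.26 with 1-naphthol and 5.27, 5.23 and 5.12 with naphthalene, against 5.37, 5.32 and 5.38 in DMSO. Again no exposed array reached the lowest DMSO array. With 1,5-naphthalenediol the gene fell by 14.8% (difference -0.23, SE 0.0444, adjusted p = 0.00341), and with naphthalene the difference was -0.16 (adjusted p = 0.0258). The 1,5-naphthalenediol call held in all 6 fits that left out 1 array and in all 10 other settings, at adjusted p up to 0.0406. The naphthalene call held in 3 of 6 fits that left out 1 array.

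Ndufa2, a small accessory subunit, read 2.14, 2.14 and 2.13 with 2,7-naphthalenediol, 2.17, 2.26 and 1.98 with 1,5-naphthalenediol, 1.94, 2.05 and 1.98 with 1-naphthol and 1.95, 2.05 and 2.02 with naphthalene, against 2.30, 2.19 and 2.31 in DMSO. Its levels separated by slide: all 8 arrays of slide 1 lay at 2.13 to 2.31 and all 7 of slide 2 at 1.94 to 2.05. The differences from DMSO were -0.27 with 1-naphthol (adjusted p = 0.0124) and -0.26 with naphthalene (adjusted p = 0.0138), but -0.04 (adjusted p = 0.827) and -0.03 (adjusted p = 0.882) with the slide as a block.

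Ndufb5, an accessory subunit of the membrane arm, read 3.28, 3.30 and 3.27 with 2,7-naphthalenediol, 3.29, 3.39 and 3.41 with 1,5-naphthalenediol, 3.49, 3.49 and 3.47 with 1-naphthol and 3.38, 3.45 and 3.49 with naphthalene, against 3.41, 3.33 and 3.41 in DMSO. No comparison with DMSO passed the threshold, and the 1-naphthol arrays lay above all DMSO arrays while the 2,7-naphthalenediol arrays lay below them.

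Ndufa10 was the complex I gene that rose, with 1,5-naphthalenediol. The accessory subunit it codes for sits in the membrane arm. Levels were -2.08, -2.04 and -1.99 with 2,7-naphthalenediol, -1.89, -1.85 and -1.98 with 1,5-naphthalenediol, -2.05, -2 and -1.95 with 1-naphthol and -1.89, -2.05 and -2.21 with naphthalene, against -2.14, -2.15 and -2.25 in DMSO. Of the 4 compounds, naphthalene alone overlapped DMSO. The difference with 1,5-naphthalenediol was 0.28, or 21.1% higher (SE 0.0708, adjusted p = 0.0162), and it held in 4 of 6 fits that left out 1 array (adjusted p = 0.065 without DMSO replicate 3).

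With 2,7-naphthalenediol, the accessory subunit genes Ndufb6 and Ndufa1 fell. Ndufb6 read 3.90, 3.86 and 3.87 against 4.06, 3.98 and 4 in DMSO (difference -0.14, adjusted p = 0.0242). Ndufa1 read 3.54, 3.59 and 3.56 against 3.74, 3.68 and 3.73 in DMSO (difference -0.15, adjusted p = 0.0403). Both genes were lower on every 2,7-naphthalenediol array than on any DMSO array, but neither call held whichever array was left out. Ndufs3, a core subunit, read 2.96, 3.02 and 2.83 with 1,5-naphthalenediol against 3.15, 3.01 and 3.12 in DMSO. The groups overlapped, and its fall of 0.16 on the log2 scale (adjusted p = 0.0396) was lost in 4 of the 6 fits that left out 1 array.

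The other 10 tested genes of complex I, namely Ndufa5, Ndufa6, Ndufa9, Ndufb3, Ndufb5, Ndufb10, Ndufs1, Ndufs7, Ndufs8 and Ndufv1, passed the threshold against DMSO with none of the compounds. Their differences from DMSO lay between -0.15 (Ndufa9 with naphthalene) and 0.10 (Ndufb5 with 1-naphthol). The remaining 4 genes of complex I were not tested. Ndufa8 and Ndufs6 had no probe matched to their symbol, the Ndufs4 probe was not well above background on any array (-9.35 to -6.93), and the Ndufb8 probe had a missing value on 1-naphthol replicate 1 and read 5.12 to 5.39 elsewhere.

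Complex II, succinate dehydrogenase, is also an enzyme of the citrate cycle and is coded wholly in the nucleus. It was the complex in which all genes tested passed the F test. Sdhb, its iron-sulfur subunit, and Sdha, the flavoprotein that oxidises succinate, were lower with 1,5-naphthalenediol: Sdhb fell by 14.4% and Sdha fell by 12.8%. Sdhd, a membrane anchor that helps bind ubiquinone, also fell by 12.8%. The median difference over the 4 genes was -0.15 with 2,7-naphthalenediol, -0.20 with 1,5-naphthalenediol, -0.10 with 1-naphthol and -0.08 with naphthalene. Called genes numbered 3 lower with 2,7-naphthalenediol, 3 lower with 1,5-naphthalenediol, 0 with 1-naphthol and 1 lower with naphthalene. The shares called were 75%, 75%, 0% and 25%, beside 11%, 22.1%, 20.8% and 25.1% of all genes, and on 4 genes they turn on single genes.

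Because 3 of the 4 complex II genes fell together with 1,5-naphthalenediol, the 250 bases before the start of each are shown, from RefSeq on assembly GRCr8, together with those of Cycs, the gene of cytochrome c. The promoter table matched 40 of the 46 genes. Capitals mark the letters GCATGCGC, the core of the motif of nuclear respiratory factor 1, and CCGGAAG, an ETS motif of the kind bound by GABP, each searched on both strands (GCGCATGC and CTTCCGG on the other strand). Sdhb lies at chr5:158547684-158547933 (plus strand), Sdhd at chr8:59850642-59850891 (minus strand), Sdha at chr1:30764303-30764552 (plus strand), Sdhc at chr13:86098026-86098275 (minus strand) and Cycs at chr4:80984768-80985017 (minus strand), each given 5′ to 3′ along its gene.
Sdhb: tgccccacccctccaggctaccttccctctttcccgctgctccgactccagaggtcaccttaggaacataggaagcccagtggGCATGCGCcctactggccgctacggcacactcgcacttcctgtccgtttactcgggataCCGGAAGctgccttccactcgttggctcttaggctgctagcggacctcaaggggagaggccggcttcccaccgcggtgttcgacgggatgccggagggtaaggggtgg
Sdhd: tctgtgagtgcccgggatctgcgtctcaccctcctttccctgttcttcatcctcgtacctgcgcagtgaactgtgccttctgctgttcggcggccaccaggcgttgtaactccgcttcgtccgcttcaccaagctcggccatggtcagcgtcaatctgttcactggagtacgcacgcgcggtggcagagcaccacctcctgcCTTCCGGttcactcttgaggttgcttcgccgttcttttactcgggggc
Sdha: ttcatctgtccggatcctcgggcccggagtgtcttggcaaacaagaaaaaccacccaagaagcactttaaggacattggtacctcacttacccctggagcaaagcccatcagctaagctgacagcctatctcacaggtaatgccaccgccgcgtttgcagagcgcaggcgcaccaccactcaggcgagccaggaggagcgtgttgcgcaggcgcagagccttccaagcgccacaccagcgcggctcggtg
Sdhc: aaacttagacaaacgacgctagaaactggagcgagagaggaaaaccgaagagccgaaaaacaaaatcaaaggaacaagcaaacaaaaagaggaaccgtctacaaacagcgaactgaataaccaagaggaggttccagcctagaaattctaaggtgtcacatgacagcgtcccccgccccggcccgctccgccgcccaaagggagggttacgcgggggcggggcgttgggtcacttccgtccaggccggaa
Cycs: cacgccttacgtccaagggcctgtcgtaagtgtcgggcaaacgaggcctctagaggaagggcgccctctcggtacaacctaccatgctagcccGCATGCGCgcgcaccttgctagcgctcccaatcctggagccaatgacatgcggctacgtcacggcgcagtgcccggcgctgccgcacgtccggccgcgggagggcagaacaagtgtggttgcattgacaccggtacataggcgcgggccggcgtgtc

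The Sdhb window held both motifs, the Sdhd window held the ETS letters, the Cycs window held the nuclear respiratory factor 1 core, and the Sdha and Sdhc windows held neither. Over the 40 windows of the pathway, 13 held CCGGAAG (32.5%, beside 7.27% of 33469 promoter windows of the same length) and 5 held GCATGCGC (12.5%, beside 2.2%). AAGATGGCG of YY1 was in 0 (0%, beside 0.693%) and AAGGTCA, a core element of oestrogen-related receptors, was in 1 (2.5%, beside 3.99%). The 33469 windows were not limited to genes tested here or to genes of like level, and bases after the start were not searched. At a share of 0.693%, a count of 0 in 40 windows says little. A match describes letters and not binding.

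Sdhb read 3.11, 3.06 and 3.09 with 2,7-naphthalenediol, 3.01, 3.05 and 3.01 with 1,5-naphthalenediol, 3.15, 3.11 and 3.18 with 1-naphthol and 3.17, 3.14 and 3.10 with naphthalene, against 3.29, 3.18 and 3.28 in DMSO. Every diol array was below the lowest DMSO array, and the 1,5-naphthalenediol arrays were the lowest of all 15. The differences were -0.22 with 1,5-naphthalenediol (SE 0.0383, adjusted p = 0.00162), -0.16 with 2,7-naphthalenediol (adjusted p = 0.0214) and -0.11 with naphthalene (adjusted p = 0.0471), and with 1-naphthol the difference was -0.11 (adjusted p = 0.0675). The 1,5-naphthalenediol call held in all 6 fits that left out 1 array and in all 10 other settings (adjusted p up to 0.0372), whereas the 2,7-naphthalenediol and naphthalene calls held in 2 of 6 and 1 of 6.

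Sdha read 2.77, 2.77 and 2.80 with 2,7-naphthalenediol, 2.67, 2.68 and 2.68 with 1,5-naphthalenediol, 2.80, 2.74 and 2.77 with 1-naphthol and 2.81, 2.75 and 2.87 with naphthalene, against 2.84, 2.87 and 2.91 in DMSO. The 1,5-naphthalenediol arrays lay below the other 12. Its difference from DMSO was -0.20 (SE 0.0363, adjusted p = 0.00259), and this call too held in all 6 fits that left out 1 array and in all 10 other settings (adjusted p up to 0.0358). With 2,7-naphthalenediol the difference was -0.09 (adjusted p = 0.116), with 1-naphthol -0.11 (adjusted p = 0.0589) and with naphthalene -0.06 (adjusted p = 0.23).

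Sdhd read 2.99, 2.97 and 2.95 with 2,7-naphthalenediol, 2.88, 2.95 and 2.95 with 1,5-naphthalenediol, 3.02, 3.05 and 3.02 with 1-naphthol and 2.94, 3.02 and 3.09 with naphthalene, against 3.12, 3.09 and 3.16 in DMSO. Apart from 1 naphthalene array at 3.09, exposed arrays lay below all DMSO arrays. The gene fell by 0.20 on the log2 scale with 1,5-naphthalenediol (SE 0.0421, adjusted p = 0.00603), in every setting run (adjusted p up to 0.0438), and by 0.16 with 2,7-naphthalenediol (adjusted p = 0.0373). Sdhc, the other membrane anchor, read 2.36, 2.30 and 2.36 with 2,7-naphthalenediol, 2.32, 2.39 and 2.45 with 1,5-naphthalenediol, 2.52, 2.44 and 2.48 with 1-naphthol and 2.47, 2.42 and 2.45 with naphthalene, against 2.52, 2.45 and 2.48 in DMSO. It fell by 0.14 with 2,7-naphthalenediol (adjusted p = 0.0407), a call lost in each of the 6 fits that left out 1 array, and its difference with 1-naphthol was 0.00.

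Complex III passes electrons from ubiquinol to cytochrome c. Its tested genes are the core proteins Uqcrc1 and Uqcrc2, the Rieske iron-sulfur protein Uqcrfs1, the haem protein Cyc1, the hinge protein Uqcrh and the small subunit Uqcrb. The median difference over the 6 genes was -0.09 with 2,7-naphthalenediol, -0.12 with 1,5-naphthalenediol, -0.09 with 1-naphthol and -0.09 with naphthalene, and 1, 1, 2 and 2 genes fell. The shares called were 16.7%, 16.7%, 33.3% and 33.3%, beside 11%, 22.1%, 20.8% and 25.1% of all genes. Cyc1, with the smallest F test p of the complex (adjusted p = 0.0412), read 4.76, 4.76 and 4.72 with 2,7-naphthalenediol, 4.71, 4.72 and 4.78 with 1,5-naphthalenediol, 4.80, 4.78 and 4.80 with 1-naphthol and 4.84, 4.78 and 4.83 with naphthalene, against 4.94, 4.84 and 4.84 in DMSO. The diol arrays lay below DMSO without overlap. Differences were -0.13 with 2,7-naphthalenediol (adjusted p = 0.046) and -0.14 with 1,5-naphthalenediol (adjusted p = 0.02), and the other Cyc1 probe gave -0.08 (adjusted p = 0.265) and -0.11 (adjusted p = 0.115).

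Uqcrh read 4.04, 4.07 and 4.10 with 1-naphthol and 4.06, 4.04 and 4.05 with naphthalene, against 4.23, 4.15 and 4.24 in DMSO. The groups did not overlap, with differences of -0.14 (adjusted p = 0.0391) and -0.16 (adjusted p = 0.022). Uqcrc2 read 1.99, 2.03 and 1.99 with 1-naphthol against 2.19, 2.21 and 2.17 in DMSO (difference -0.19, adjusted p = 0.0441). With the slide as a block the Uqcrh differences were -0.06 (adjusted p = 0.717) and -0.08 (adjusted p = 0.6), and the Uqcrc2 difference was -0.15 (adjusted p = 0.505). The other complex III gene called with naphthalene was Uqcrfs1, outside the naming rule and named after its values were seen, at 3.19, 3.11 and 3.11 with naphthalene against 3.26, 3.21 and 3.26 in DMSO (difference -0.11, adjusted p = 0.0463). Uqcrb and Uqcrc1 passed the threshold with none of the compounds, at differences between -0.13 and -0.05.

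Cytochrome c is the small haem protein that carries electrons from complex III to complex IV and, once released to the cytosol, starts caspase activation. Its gene Cycs fell by 13% with 1-naphthol and fell by 13.6% with naphthalene. The probe used, the brighter of 2, read 4.26, 4.29 and 4.24 with 2,7-naphthalenediol, 4.33, 4.38 and 4.37 with 1,5-naphthalenediol, 4.23, 4.20 and 4.19 with 1-naphthol and 4.10, 4.23 and 4.26 with naphthalene, against 4.44, 4.37 and 4.41 in DMSO. Only 1,5-naphthalenediol overlapped DMSO. Differences were -0.15 with 2,7-naphthalenediol (adjusted p = 0.0504), -0.05 with 1,5-naphthalenediol (adjusted p = 0.461), -0.20 with 1-naphthol (SE 0.0431, adjusted p = 0.00913) and -0.21 with naphthalene (adjusted p = 0.00638). The 1-naphthol and naphthalene calls held whichever array was left out. With the slide as a block the sizes stayed at -0.21 and -0.22, but the adjusted p was 0.179 and 0.151.

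The other Cycs probe did not show these falls. It read 2.58 to 2.68 with 2,7-naphthalenediol, 2.70 to 2.74 with 1,5-naphthalenediol, 2.74 to 2.77 with 1-naphthol and 2.71 to 2.82 with naphthalene, against 2.74 to 2.76 in DMSO. The 2,7-naphthalenediol arrays lay below all others on it, and the 1-naphthol and naphthalene arrays overlapped DMSO. Differences from DMSO on this probe were -0.13 with 2,7-naphthalenediol (adjusted p = 0.0491), -0.02 with 1,5-naphthalenediol (adjusted p = 0.698), 0.01 with 1-naphthol (adjusted p = 0.898) and 0.01 with naphthalene (adjusted p = 0.867). The probes thus disagreed for 1-naphthol and naphthalene, and the average of both gave -0.10 for each compound (adjusted p = 0.0823 and 0.0639).

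**Figure D2:**
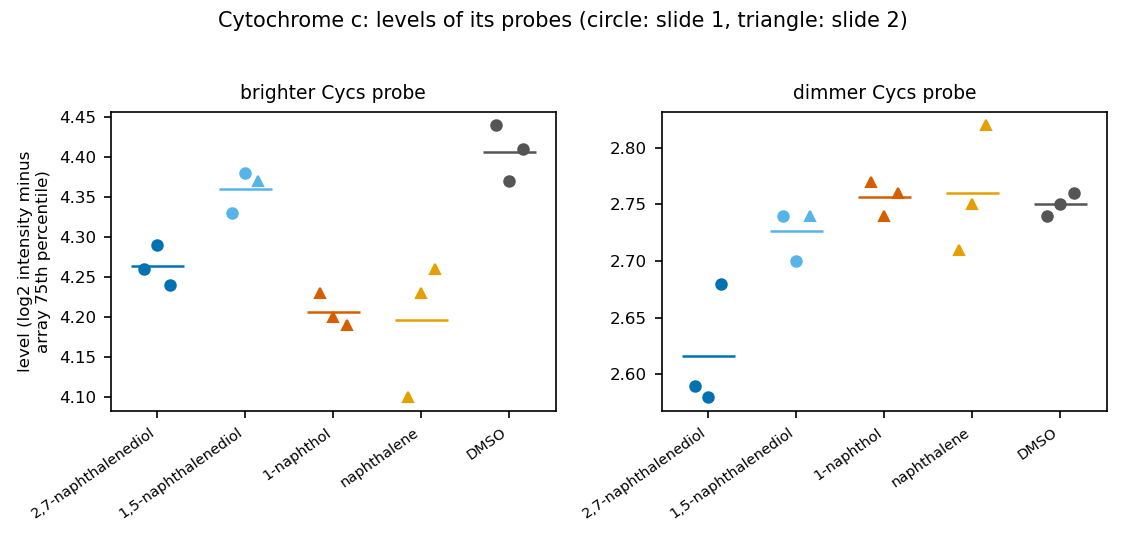
Level of both cytochrome c probes (log2 intensity minus the array's 75th percentile, vertical axis) on each of the 15 arrays by group, with circles for slide 1, triangles for slide 2 and a line at the group mean. On the brighter probe the 1-naphthol and naphthalene arrays (4.10 to 4.26) lie below DMSO (4.37 to 4.44), and on the dimmer probe they surround the DMSO arrays at 2.74 to 2.76.

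Complex IV, cytochrome c oxidase, reduces oxygen to water. Its catalytic subunits are coded in mitochondrial DNA, and the 8 genes here code for nuclear subunits around them, among them Cox4i1 and Cox5a and the liver form Cox6a1. The median difference over the 8 genes was -0.09 with 2,7-naphthalenediol, -0.06 with 1,5-naphthalenediol, -0.01 with 1-naphthol and -0.02 with naphthalene. No gene of the complex was called with either diol, and with 1-naphthol and with naphthalene 1 fell (Cox6a1) and 1 rose (Cox7c). The share called was 25% with 1-naphthol and 25% with naphthalene, beside 20.8% and 25.1% of all genes. Cox6a1 read 6.49, 6.50 and 6.50 with 1-naphthol and 6.50, 6.51 and 6.53 with naphthalene, against 6.70, 6.58 and 6.66 in DMSO. These arrays lay below DMSO without overlap, with differences of -0.15 (adjusted p = 0.0358) and -0.14 (adjusted p = 0.0473), and with the slide as a block the differences were -0.02 (adjusted p = 0.921) and 0.00 (adjusted p = 0.99).

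Cox7c, a small nuclear subunit, had the smallest F test p of the 42 genes (adjusted p = 0.00525). It read -0.88, -0.97 and -0.97 with 2,7-naphthalenediol, -1.05, -0.88 and 0.12 with 1,5-naphthalenediol, 0.13, 0.16 and 0.16 with 1-naphthol and 0.11, 0.21 and 0.13 with naphthalene, against -0.60, -0.59 and -0.83 in DMSO. The 1-naphthol and naphthalene arrays lay above DMSO, and so did 1 array of 1,5-naphthalenediol, replicate 3, which is the array of that group on slide 2. The 8 arrays of slide 1 lay at -1.05 to -0.59 and the 7 of slide 2 at 0.11 to 0.21. The SE of 0.219 pools the spread of all groups, so it includes this split within 1,5-naphthalenediol. The fitted differences from DMSO were 0.82 for both 1-naphthol (SE 0.219, adjusted p = 0.0225) and naphthalene (adjusted p = 0.0194), and turned to -0.26 (adjusted p = 0.269) and -0.26 (adjusted p = 0.262) with the slide as a block. Within 1,5-naphthalenediol, slide 2 minus slide 1 was 1.09 (SE 0.1, adjusted p = 0.000126), and Cox7c was the 1 of 42 genes called for that slide term, beside 4.46% of all genes.

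**Figure D3:**
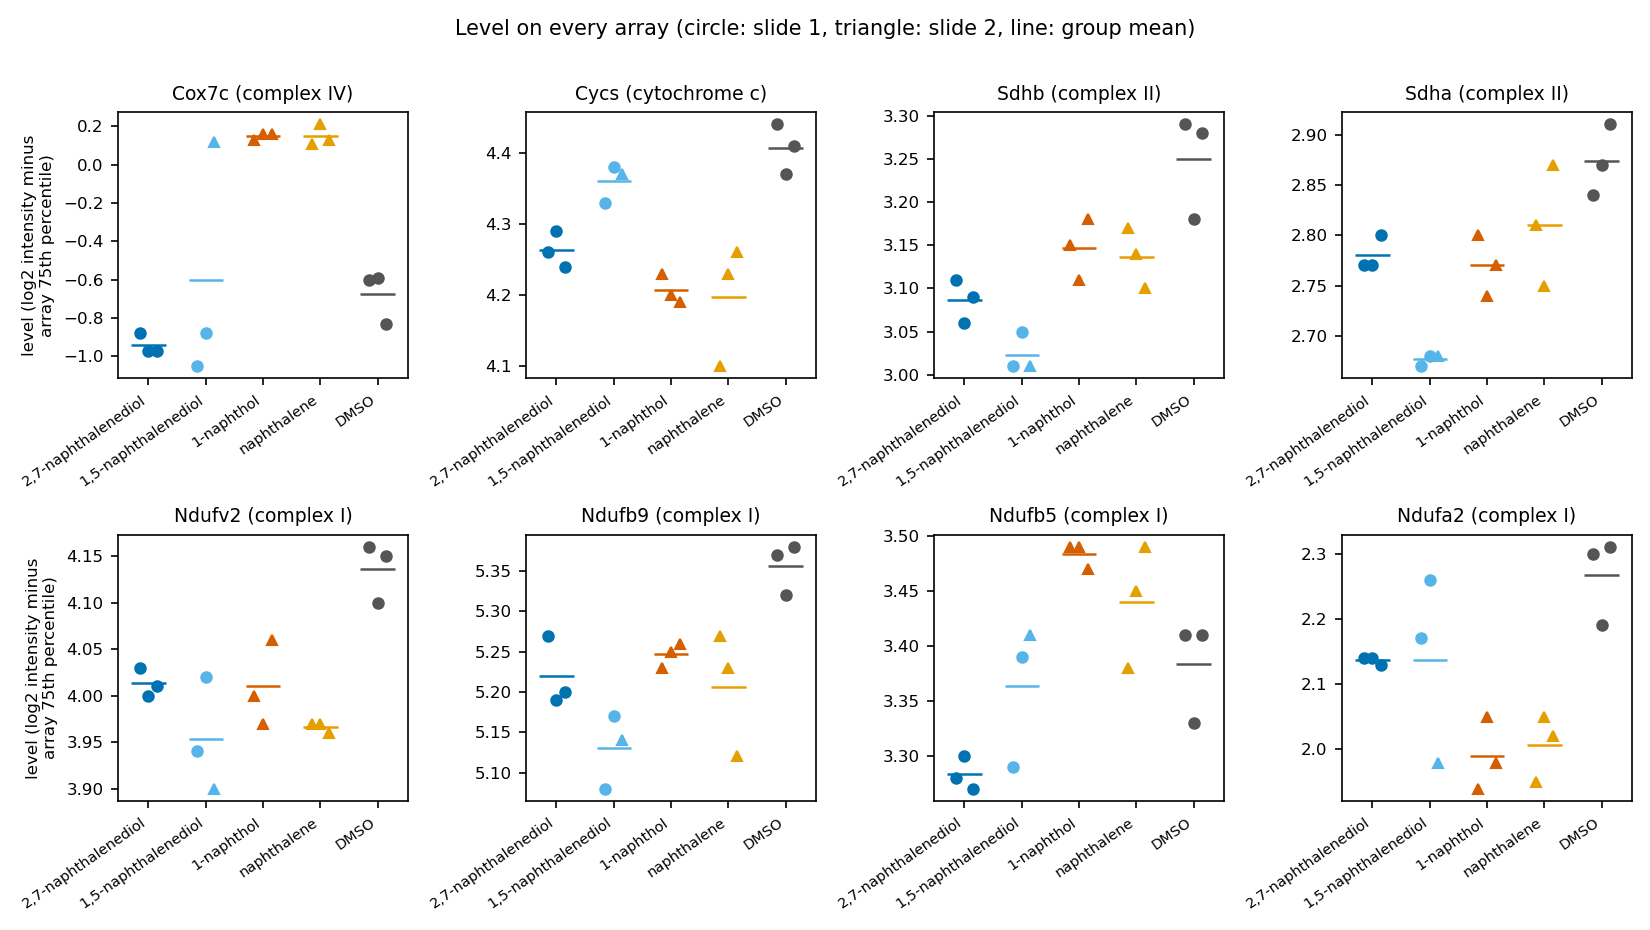
Level of 8 genes (log2 intensity minus the array's 75th percentile, vertical axis, with a separate range in each panel) on each of the 15 arrays by group; circles are arrays of slide 1, triangles arrays of slide 2 and lines group means. Cox7c divides by slide, with its 7 triangles at 0.11 to 0.21, and Sdha and Sdhb are lowest on the 3 arrays of 1,5-naphthalenediol.

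Arrays of the slides did not overlap for 3 of the 42 genes, beside 6.61% of all genes: Cox7c, Ndufa2 and Uqcrfs1. Cox5a, one of the larger nuclear subunits, passed the F test (adjusted p = 0.0469) and read 4.22, 4.13 and 4.14 with 2,7-naphthalenediol, 4.18, 4.22 and 4.38 with 1,5-naphthalenediol, 4.36, 4.37 and 4.35 with 1-naphthol and 4.34, 4.31 and 4.31 with naphthalene, against 4.36, 4.26 and 4.33 in DMSO. On the Cox5a probe used, the 1,5-naphthalenediol array of slide 2 was the highest of its group. On the other Cox5a probe that group read 4.19, 4.29 and 4.25, and its slide 2 array (4.25) was not the highest. Cox4i1, Cox5a, Cox5b, Cox6c, Cox7a2 and Cox8a passed the threshold against DMSO with none of the compounds, at differences between -0.15 (Cox5a with 2,7-naphthalenediol) and 0.04 (Cox8a with naphthalene).

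Complex V makes ATP at the interface of its alpha and beta subunits (Atp5f1a and Atp5f1b), turned by the gamma subunit (Atp5f1c) with delta (Atp5f1d) and held by a peripheral stalk that includes subunit b (Atp5pb) and OSCP (Atp5po). The median difference over the 6 genes was -0.09 with 2,7-naphthalenediol, -0.11 with 1,5-naphthalenediol, -0.07 with 1-naphthol and -0.09 with naphthalene. Called genes, all lower, numbered 0 with 2,7-naphthalenediol, 3 with 1,5-naphthalenediol, 2 with 1-naphthol and 3 with naphthalene. The shares called were 0%, 50%, 33.3% and 50%, beside 11%, 22.1%, 20.8% and 25.1% of all genes, and on 6 genes they turn on single genes. Atp5f1a read 6.50, 6.55 and 6.47 with 2,7-naphthalenediol, 6.44, 6.52 and 6.46 with 1,5-naphthalenediol, 6.51, 6.47 and 6.51 with 1-naphthol and 6.49, 6.45 and 6.44 with naphthalene, against 6.66, 6.57 and 6.62 in DMSO. No exposed array reached the lowest DMSO array.

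The Atp5f1a differences were -0.14 with 1,5-naphthalenediol (adjusted p = 0.0152), -0.12 with 1-naphthol (adjusted p = 0.0382) and -0.16 with naphthalene (adjusted p = 0.011). The other Atp5f1a probe gave -0.15 with 1,5-naphthalenediol (adjusted p = 0.0196), -0.01 with 1-naphthol (adjusted p = 0.848) and -0.03 with naphthalene (adjusted p = 0.665), so the probes differed on the last 2 compounds. Atp5pb read 4.08, 4.05 and 3.96 with 1,5-naphthalenediol, 4.04, 4.03 and 4.10 with 1-naphthol and 4.02, 4 and 4.07 with naphthalene, against 4.23, 4.15 and 4.18 in DMSO. All 9 of these arrays were below DMSO, with differences of -0.16 (adjusted p = 0.018), -0.13 (adjusted p = 0.0431) and -0.15 (adjusted p = 0.0191). Atp5f1c fell with 1,5-naphthalenediol (-0.11, adjusted p = 0.0387) and naphthalene (-0.12, adjusted p = 0.0247). Atp5f1b, Atp5f1d and Atp5po were called with none of the compounds, at differences between -0.11 and 0.03.

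Across these comparisons with DMSO the calls differed in how far they held. With 2,7-naphthalenediol no call held in all 6 fits that left out 1 array: 2 genes were called without DMSO replicate 2 and 2 without 2,7-naphthalenediol replicate 1, and 0 without any of the other 4 arrays, where limma gave 14 to 17 genes an unadjusted p below 0.05. With the slide as a block 11 of the 42 genes were called with 2,7-naphthalenediol, all lower (15.1% of all genes). With 1,5-naphthalenediol 6 to 10 genes were called in such fits (6 without DMSO replicate 1 and 7 without 1,5-naphthalenediol replicate 1), and 5 calls (Sdhb, Sdha, Ndufb9, Sdhd and Ndufv2) held in all 6. With the slide as a block 0 of 42 genes were called with 1-naphthol and 0 with naphthalene, where 1.13% and 0.727% of all genes were, and limma's unadjusted p was below 0.05 for 4 and 2 of the 42. Without the block 20.8% and 25.1% of all genes were called, so calls were lost over all genes and not in this pathway alone. Leaving out 1 array with 1-naphthol gave 2 calls without DMSO replicate 3, 1-naphthol replicate 1 or 1-naphthol replicate 2, 3 without DMSO replicate 1 or 1-naphthol replicate 3, and 8 without DMSO replicate 2. With naphthalene it gave 3 calls without DMSO replicate 3, 5 without DMSO replicate 1 or naphthalene replicate 2, and 8 to 10 otherwise.

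A negative median was also found over all genes of like signal, smaller in size with each compound. Of the 42 genes, 35 lay in the brightest of 10 bins of all genes tested (1981 genes in it, levels 2.35 to 7.95). The median difference from DMSO over that bin was -0.09 with 2,7-naphthalenediol, -0.07 with 1,5-naphthalenediol, -0.04 with 1-naphthol and -0.05 with naphthalene, and over the 35 genes in it -0.10, -0.10, -0.07 and -0.07. Under quantile normalization the bin stood at -0.01, -0.01, 0.00 and -0.01 and the 42 genes at -0.03, -0.03, -0.03 and -0.02, with a standard deviation of the genes' median between arrays of a group of 0.0283. The negative median of the pathway was thus smaller with each compound under quantile normalization, while the falls of Sdhb (-0.17, adjusted p = 0.00561), Sdha (-0.15, adjusted p = 0.0113) and Ndufv2 (-0.13, adjusted p = 0.0172) with 1,5-naphthalenediol passed the threshold in it. Quantile normalization gives all arrays the same distribution of intensities, which by itself brings the median of a bin near 0. The cause of the negative medians was not tested.

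**Figure D4:**
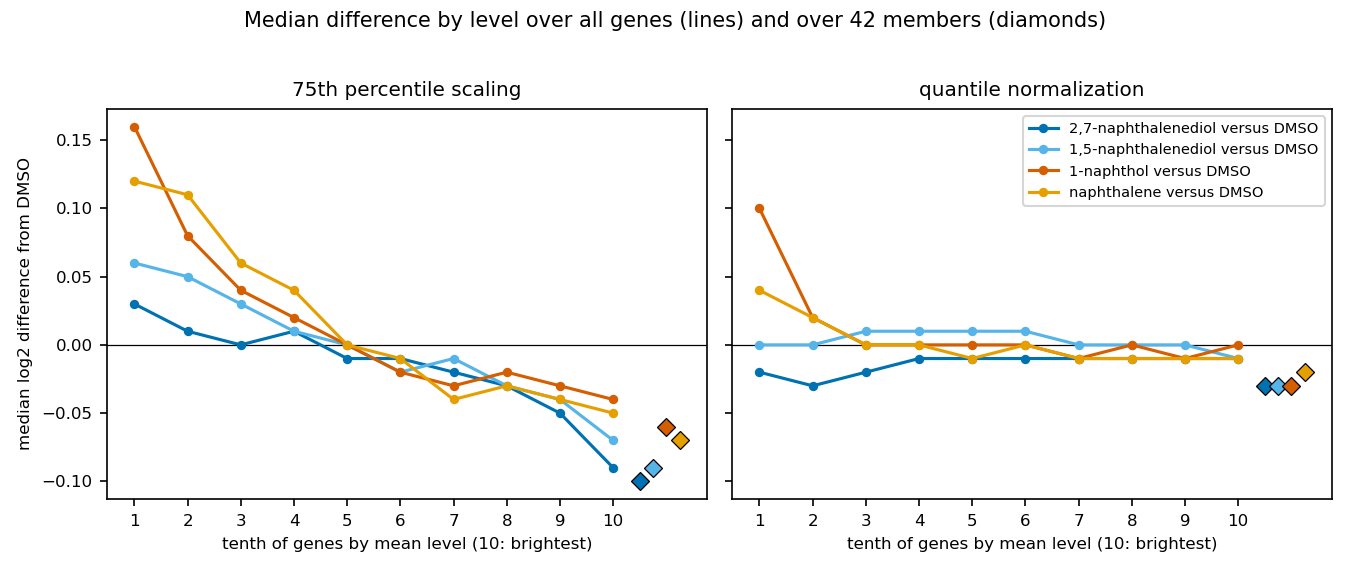
Median log2 difference from DMSO (vertical axis) over all genes tested, in 10 bins by mean level from dimmest to brightest (horizontal axis, lines), and over the 42 oxidative phosphorylation genes (diamonds), with the 75th percentile scaling on the left and quantile normalization on the right. With the 75th percentile the brightest bin lies at -0.09 to -0.04 and the diamonds at -0.10 to -0.06, and with quantile normalization the diamonds lie at -0.03 to -0.02.

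The compounds were also set against each other at the same dose and time, in 6 pairs, with adjustment within each pair over all genes. Between 1-naphthol and naphthalene, which differ by a single hydroxyl group, 0 of 42 genes were called (2.44% of all genes) and 0 had an unadjusted p below 0.05. The largest differences were 0.09 for Ndufa9 (adjusted p = 0.427), 0.08 for Ndufb10 (adjusted p = 0.397) and 0.07 for Cox4i1 (adjusted p = 0.525). The 95% intervals of the differences reached -0.18 to 0.20 over the genes without Cox7c, and -0.48 to 0.47 for Cox7c. The Cox7c interval uses a spread pooled over all 5 groups. Its standard deviation was 0.632 within 1,5-naphthalenediol, whose arrays were split by slide. Within 1-naphthol and naphthalene it was 0.0149 and 0.0522. A p above the threshold does not show equal levels. Each interval is for a single gene, without allowance for the number of genes, and rests on the spread between arrays.

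Between the diols, which differ in the positions of their hydroxyl groups, 0 of 42 genes were called (14.7% of all genes) and 2 had an unadjusted p below 0.05. The largest differences, 1,5-naphthalenediol minus 2,7-naphthalenediol, were 0.34 for Cox7c (adjusted p = 0.344), 0.13 for Ndufa10 (adjusted p = 0.242) and -0.11 for Sdha (95% interval -0.18 to -0.03, adjusted p = 0.0731). The intervals reached -0.21 to 0.29 without Cox7c. The calls against DMSO for Sdha with 1,5-naphthalenediol and not with 2,7-naphthalenediol therefore do not amount to a called difference between the diols.

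Between the diols and 1-naphthol or naphthalene a few of the 42 genes were called, in each pair a smaller share than of all genes. With 2,7-naphthalenediol the shares were 9.52% against 1-naphthol and 4.76% against naphthalene. With 1,5-naphthalenediol they were 2.38% and 7.14%. With 2,7-naphthalenediol against 1-naphthol 4 genes were lower and 0 higher (14.7% of all genes called, 8.49% lower and 6.23% higher): Cox7c by -1.09 (adjusted p = 0.0108), Ndufb5 by -0.20 (95% interval -0.29 to -0.11, adjusted p = 0.0124), Cox5a by -0.19 (adjusted p = 0.0271) and Sdhc by -0.14 (adjusted p = 0.0356). The other Cox5a probe gave -0.07 for 2,7-naphthalenediol against 1-naphthol (adjusted p = 0.261). With 2,7-naphthalenediol against naphthalene 2 were lower (15.8% of all genes, 9.5% lower and 6.32% higher), Cox7c by -1.09 (adjusted p = 0.0107) and Ndufb5 by -0.16 (adjusted p = 0.0267). Each of these pairs lies on different slides, so the slide cannot be told apart from the compound but by way of 1,5-naphthalenediol, and with the slide as a block limma called 0 of the 42 genes in either pair, 0 of them at an unadjusted p below 0.05. Leaving out 1 array left 2 calls against 1-naphthol for each array but 2,7-naphthalenediol replicate 1, where 3 were called, and 1 call against naphthalene for each array but naphthalene replicate 1, where 2 were called.

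With 1,5-naphthalenediol against 1-naphthol 1 gene was called (9.16% of all genes, 4.8% lower and 4.36% higher), Cycs, higher by 0.15 (95% interval 0.06 to 0.25, adjusted p = 0.0462), and the call was lost in each of the 6 fits that left out 1 array. Without 1,5-naphthalenediol replicate 3, 4 genes were called in this pair. With 1,5-naphthalenediol against naphthalene 3 were called (24.9% of all genes, 13.7% lower and 11.3% higher): Cycs was higher by 0.16 (adjusted p = 0.0179), and Sdha and Cox7c were lower, by -0.14 (adjusted p = 0.0185) and -0.76 (adjusted p = 0.0265). After normexp background correction the split was 0 higher and 1 lower against 1-naphthol and 2 higher and 2 lower against naphthalene. Leaving out 1,5-naphthalenediol replicate 1, 2 or 3 gave 1, 0 or 6 calls against naphthalene. Of the 1,5-naphthalenediol arrays, 2 were on slide 1, while all 1-naphthol and naphthalene arrays were on slide 2. With the slide as a block limma called 0 of the 42 genes in either pair (3 against 1-naphthol and 4 against naphthalene at an unadjusted p below 0.05), and on slide 2 alone it also called 0 (1 and 1). On slide 2 alone the differences from naphthalene were 0.17 for Cycs (adjusted p = 0.277), -0.13 for Sdha (adjusted p = 0.314) and -0.03 for Cox7c (adjusted p = 0.815), so the Cox7c difference was near 0 there. The Cycs difference rests on the brighter probe described above.

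Other genes around the pathway were read from 5 lists, whose counts stand beside the share of all genes called, which was 11% with 2,7-naphthalenediol, 22.1% with 1,5-naphthalenediol, 20.8% with 1-naphthol and 25.1% with naphthalene. Among 35 further structural subunits tested, called genes numbered 0 higher and 0 lower with 2,7-naphthalenediol, 1 and 4 with 1,5-naphthalenediol, 2 and 3 with 1-naphthol and 2 and 6 with naphthalene. The shares called were 0%, 14.3%, 14.3% and 22.9%, each below that of all genes, and the medians were -0.11, -0.08, -0.04 and -0.04. Cox6a2, the muscle form of a complex IV subunit, had the largest difference, at -0.26, -0.09 and 0.01 with 1,5-naphthalenediol against 0.52, 0.63 and 0.73 in DMSO (difference -0.74, SE 0.0928, adjusted p = 0.000214), and 0.11, 0.31 and 0.35 with 1-naphthol (difference -0.37, adjusted p = 0.017). It was called with 1,5-naphthalenediol in every setting run. Cox6b2, a testis form, rose by 0.47 with naphthalene (adjusted p = 0.00332) and was 0.16 (adjusted p = 0.395) with the slide as a block. Cox4i2, the alternative form of Cox4i1, showed differences of 0.44 with 1-naphthol (adjusted p = 0.0321) and 0.48 with naphthalene (adjusted p = 0.0199), which turned negative with the slide as a block (-0.18 and -0.14). Its 1,5-naphthalenediol array on slide 2 (-0.70) lay with them and not with its own group (-1.36 and -1.29).

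Of 37 assembly factors, which build the complexes without staying in them, 0 were higher and 2 lower with 2,7-naphthalenediol, 3 and 2 with 1,5-naphthalenediol, 0 and 6 with 1-naphthol and 1 and 13 with naphthalene. These were 5.41%, 13.5%, 16.2% and 37.8% of the list, below the share of all genes except with naphthalene, with medians of -0.06, -0.05, -0.07 and -0.11. Nubpl, which delivers iron-sulfur clusters to complex I, read -0.65, -0.65 and -0.65 with 2,7-naphthalenediol against -0.46, -0.50 and -0.50 in DMSO (difference -0.17, adjusted p = 0.0114). It was called at like size with the other compounds. The differences were -0.15 with 1,5-naphthalenediol (adjusted p = 0.00685), -0.16 with 1-naphthol (adjusted p = 0.00694) and -0.16 with naphthalene (adjusted p = 0.00694). Timmdc1, a complex I assembly factor, read -0.92, -1.01 and -1.05 with naphthalene against -0.69, -0.76 and -0.73 in DMSO (difference -0.26, adjusted p = 0.00657), and -0.10 (adjusted p = 0.535) with the slide as a block. These groups did not overlap.

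Of 17 regulators of mitochondrial biogenesis, 2 were higher and 0 lower with 2,7-naphthalenediol, 2 and 0 with 1,5-naphthalenediol, 2 and 2 with 1-naphthol and 2 and 2 with naphthalene. At 11.8%, 11.8%, 23.5% and 23.5% called, the list lay near the share of all genes or below it, and its medians were 0, 0.05, 0.06 and 0. Esrra, the oestrogen-related receptor alpha, read 1.60, 1.67 and 1.73 with 1,5-naphthalenediol against 1.45, 1.35 and 1.31 in DMSO (difference 0.30, SE 0.0551, adjusted p = 0.00284). Polrmt, the mitochondrial RNA polymerase, read -0.30, -0.34 and -0.44 with 1,5-naphthalenediol against -0.72, -0.66 and -0.60 in DMSO (difference 0.30, SE 0.0575, adjusted p = 0.00312). With 1,5-naphthalenediol both rose without overlap, and both calls held in every setting run. The genes of the 42 called on the same arrays were lower apart from Ndufa10. Esrra was also called with 1-naphthol (0.24, adjusted p = 0.0132) and naphthalene (0.25, adjusted p = 0.00896). Polrmt was also called with 2,7-naphthalenediol (0.23, adjusted p = 0.0258) and naphthalene (0.17, adjusted p = 0.0451). With the slide as a block the adjusted p was 0.486 and 0.41 for Esrra with 1-naphthol and naphthalene, and 0.128 for Polrmt with naphthalene. Nrf1, which codes for nuclear respiratory factor 1, read -3.58, -3.66 and -3.73 with 1-naphthol and -3.56, -3.71 and -3.60 with naphthalene, against -3.17, -3.21 and -3.29 in DMSO. Its differences of -0.44 (adjusted p = 0.00301) and -0.40 (adjusted p = 0.00406) became -0.19 (adjusted p = 0.342) and -0.16 (adjusted p = 0.421) with the slide as a block.

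Citrate cycle enzymes, which supply the chain with NADH and succinate, were called only on the lower side: 2 of 17 with 2,7-naphthalenediol, 7 with 1,5-naphthalenediol, 4 with 1-naphthol and 7 with naphthalene. The shares called were 11.8%, 41.2%, 23.5% and 41.2%, beside 11%, 22.1%, 20.8% and 25.1% of all genes called in either direction. On the lower side alone 4.84%, 12.7%, 10.6% and 12.6% of all genes were called. On 17 genes these shares turn on a few genes. The medians were -0.1, -0.12, -0.07 and -0.11. Pdhb, a subunit of pyruvate dehydrogenase, which feeds the cycle, read 2.00, 1.98 and 1.84 with 1,5-naphthalenediol against 2.32, 2.30 and 2.24 in DMSO. It fell by 21.3% (difference -0.35, SE 0.0507, adjusted p = 0.000646) in every setting run. Pdhb was also called lower with 2,7-naphthalenediol (-0.21, adjusted p = 0.0226) and 1-naphthol (-0.16, adjusted p = 0.0476). These calls held in 2 of 6 and 0 of 6 fits that left out 1 array. Dlat, of the same list, was called lower with each compound. The differences were -0.16 with 2,7-naphthalenediol (adjusted p = 0.0453) and -0.14 with 1,5-naphthalenediol (adjusted p = 0.0477), both near the threshold. They were -0.28 with 1-naphthol (adjusted p = 0.00303) and -0.24 with naphthalene (adjusted p = 0.00533). The Dlat call with 2,7-naphthalenediol held in 0 of 6 fits that left out 1 array. Those with 1-naphthol and naphthalene held in all 6. With the slide as a block Pdhb was at -0.01 with 1-naphthol (adjusted p = 0.974). Dlat was then at -0.22 with 1-naphthol (adjusted p = 0.187) and -0.18 with naphthalene (adjusted p = 0.263). Suclg1, a subunit of the enzyme that makes succinate, fell by 0.22 with 1,5-naphthalenediol (adjusted p = 0.00603). Mdh2 and Fh, malate dehydrogenase and fumarase, fell by 0.23 (adjusted p = 0.00471) and 0.19 (adjusted p = 0.00479) with naphthalene, and were at -0.18 (adjusted p = 0.231) and -0.12 (adjusted p = 0.307) with the slide as a block.

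Among 7 carriers and channels, 1 was higher and 1 lower with 2,7-naphthalenediol, 2 and 1 with 1,5-naphthalenediol, 0 and 0 with 1-naphthol and 0 and 2 with naphthalene. On so short a list these shares (28.6%, 42.9%, 0% and 28.6%, with medians of -0.08, 0.01, -0.04 and -0.05) turn on single genes. Slc25a3, which brings phosphate to the ATP synthase, read 4.31, 4.34 and 4.35 with 1,5-naphthalenediol and 4.40, 4.35 and 4.35 with 2,7-naphthalenediol, against 4.55, 4.55 and 4.53 in DMSO. It fell by 0.21 (SE 0.0319, adjusted p = 0.000781) and 0.18 (adjusted p = 0.00709) without overlap. Slc25a3 was also called lower with naphthalene (-0.12, adjusted p = 0.0229). Under quantile normalization its 1,5-naphthalenediol call held (-0.15, adjusted p = 0.00492). Those with 2,7-naphthalenediol (-0.07, adjusted p = 0.156) and naphthalene (-0.06, adjusted p = 0.179) did not. Slc25a4, an exchanger of ADP and ATP, rose by 0.25 with 1,5-naphthalenediol (adjusted p = 0.00621) and 0.20 with 2,7-naphthalenediol (adjusted p = 0.0386). The latter call held in 1 of 6 fits that left out 1 array. Slc25a5, of the same list, averaged 3.81 in DMSO, where Slc25a4 averaged -0.60. It was lower with 1,5-naphthalenediol (-0.09, adjusted p = 0.316) and 2,7-naphthalenediol (-0.13, adjusted p = 0.159), without a call. With naphthalene Slc25a5 was called lower (-0.19, adjusted p = 0.0389). Vdac2, an outer membrane channel, rose by 0.15 with 1,5-naphthalenediol (adjusted p = 0.00363). With the slide as a block no more than 1 gene of any of the 5 lists was called with 1-naphthol or with naphthalene.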

How the data were processed

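Each deposited file is the scanner output of 1 array, and the value used for a spot is its processed intensity, which the authors obtained with Feature Extraction 10.7.1.1. The software had removed background and spatial trend from that intensity array by array, per the file headers, with no normalization between arrays. Per the labels' protocols, the miRNeasy kit served to extract RNA, of which 100 ng received the dye Cy3. The file headers name the build rn4. Probes were named through their transcript accession in a RefSeq gene table of assembly GRCr8, which gave 21229 of 45598 gene probes 1 symbol (16678 symbols), and promoter sequences come from RefSeq on the same assembly.

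Control spots and spots marked as outliers were left out, log2 of the intensity was taken, the 75th percentile of each array was subtracted and spots of a probe were averaged. Kept probes (23562) were those above background by the software's own flag on each of the 3 arrays in 1 group or more, and the brightest kept probe stood for a gene, which left 19803 genes, 10503 of them with a symbol. Of the 42 genes described, 8 had several kept probes. The test was limma 3.58.1 under R 4.3.3 (tables were read with version 1.17.8 of data.table), as 1 model of 5 group means over 15 arrays. Moderated p-values were adjusted by Benjamini-Hochberg over all genes, separately in each of 10 comparisons, with a threshold of 0.05, and intervals are at 95%. The procedure was tested on simulated data with independent arrays and no slide effect, so that test does not cover the slide split of the real arrays.

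The members and all gene lists were chosen with earlier results of these data known. In each comparison the genes past the threshold are named, at most the 10 largest changes per direction, or otherwise the 3 largest differences. The gene of each complex with the smallest F test p is named too, every array is given for the 8 members with the smallest such p and for Cycs, and at most 3 genes per further list and comparison are named. Fuller values of other called genes, and the names of genes not called, were added for completeness.

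Alternatives were quantile normalization, normexp background correction with an offset of 50 (on the median spot signal, since the mean signal that had been planned was not used here), no filter on dim probes, the mean of a gene's probes, the slide as a fixed or random block, single slides, a replicate block, the arrays of the compared groups alone, adjustment over all 10 comparisons, and leaving out each array. The number of arrays and the signal over background limit the precision.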

Additional observations from a re-analysis of the deposited data

How the results depend on the processing

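Counts of called genes among the 42 moved with the processing. Quantile normalization gave 9 in the F test and, against DMSO, 0 with 2,7-naphthalenediol, 6 with 1,5-naphthalenediol, 4 with 1-naphthol and 5 with naphthalene. Normexp gave 3 with 2,7-naphthalenediol and 7 with 1,5-naphthalenediol. With no filter on dim probes the counts were 3 in the F test, 0, 5, 2 and 1 against DMSO in the same order, 0 for 1,5-naphthalenediol against 1-naphthol and against naphthalene, and 1 for 2,7-naphthalenediol against each. The slide as a fixed block gave 7 in the F test, 11 with 2,7-naphthalenediol, 0 with 1-naphthol, 0 with naphthalene and 0 for either diol against 1-naphthol or naphthalene. As a random block it gave 6 in the F test, 1 with 1-naphthol, 2 with naphthalene, 0 for either diol against 1-naphthol and 0 for 2,7-naphthalenediol against naphthalene. Slide 1 alone gave 0 with 2,7-naphthalenediol and 6 with 1,5-naphthalenediol, and slide 2 alone gave 0 for 1,5-naphthalenediol against 1-naphthol and against naphthalene. The arrays of the compared groups alone gave 0, 5 and 3 with 2,7-naphthalenediol, 1,5-naphthalenediol and naphthalene, 0 for 1,5-naphthalenediol against 1-naphthol or naphthalene and 1 for 2,7-naphthalenediol against naphthalene. Adjustment over all 10 comparisons gave 10 with 2,7-naphthalenediol and 2 for 1,5-naphthalenediol against 1-naphthol, and the mean of a gene's probes gave 0 there. Leaving out 1 array gave 5 to 18 in the F test, and 0 to 2, 6 to 10, 2 to 8 and 3 to 10 against DMSO in the order above. In the pairs it gave 2 to 3 and 1 to 2 for 2,7-naphthalenediol against 1-naphthol and naphthalene, 0 to 4 and 0 to 6 for 1,5-naphthalenediol against them, and 0 for both other pairs. Arrays that share a replicate number share only that: their deviations correlated above 0.1 in 2 of 30 pairings, and the best match of an array bore its number for 5 of 15. The replicate block gave 11 in the F test, 4, 10, 3 and 10 against DMSO, and 0 for 1,5-naphthalenediol against 1-naphthol. Of the 48 single calls in all comparisons, 24 held under quantile normalization, 31 with normexp, 10 with no filter, 14 with the slide block and 34 with the replicate block, and the cause of these changes was not tested. With the slide block Cox7c turned to -0.26 with 1-naphthol and -0.26 with naphthalene, Cox4i2 to -0.18 and -0.14, and Slc25a5 to 0.03 with naphthalene.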
